A study of Homo sapiens with 9 samples.

Results

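The committed steps at the top of glycolysis were examined in HepG2 cells, a hepatocellular carcinoma (HCC) line, through 8 genes chosen by symbol: the hexokinases *HK1* and *HK2*, the phosphofructokinases *PFKL*, *PFKM* and *PFKP*, and the bifunctional enzymes *PFKFB2*, *PFKFB3* and *PFKFB4*. All 8 had a row in both count tables, which hold 13017 genes for sh1-*TUG1* and 12953 genes for sh2-*TUG1*, of which 12854 are in both. The libraries came from cells carrying a control shRNA (sh-Con) or either of 2 shRNAs against the long non-coding RNA *TUG1* (sh1-*TUG1* and sh2-*TUG1*), 3 libraries per group. All groups share the HepG2 background, the lentiviral vector whose shRNA is induced by doxycycline, and culture in low-glucose medium. The labels give no doxycycline dose or time, and the study's methods call the 3 libraries of a group technical replicates, so p-values here measure the spread between these libraries and may not cover the spread between cultures. *TUG1* itself was not analysed here, so its level could not serve to check the labels.

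Glucose entering a cell is trapped by hexokinase, which phosphorylates it to glucose 6-phosphate. Phosphofructokinase then commits the sugar to glycolysis by adding a phosphate to fructose 6-phosphate, and its strongest activator is fructose 2,6-bisphosphate. The PFKFB enzymes both make and remove that activator, and their isozymes differ in the balance of the opposed activities. Liver cancer cells are known for using *HK2* and the M2 form of pyruvate kinase.

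Libraries held 33054291 to 39393293 counts, and the 3 control libraries serve both comparisons. Of 8 hepatocyte markers, 8 had a row in these HepG2 libraries, and at an adjusted p under 0.05 sh1-*TUG1* had 4 higher and 2 lower, while sh2-*TUG1* had 2 higher and 5 lower. Their summed level was 39900 to 41550 CPM (counts scaled to a common library size, with 1 TMM scale over the 9 libraries) in sh-Con, 44370 to 45820 in sh1-*TUG1* and 48580 to 50870 in sh2-*TUG1*. The sum rose with albumin (*ALB*), which had 12780 to 14490, 17840 to 19230 and 25380 to 25400 CPM, while the sum of the other markers was 26660 to 28770, 26090 to 26590 and 23200 to 25470 CPM. Of 8 markers of other cell types, 4 had a row (*CD68*, *VWF*, *PECAM1* and *ACTA2*), with summed levels of 104 to 119.9, 88.3 to 95.9 and 64.5 to 72.5 CPM. *CD68*, a macrophage marker that other cells also express, was at 55.2% and 32.7% of the control level. *ACTA2* was at 120.6% and 90.2%, and *VWF* was higher in both lines. These levels differed between the groups along with the members below, and their part in those results was not tested. In bulk libraries, fewer cells of a kind and less RNA per cell cannot be told apart.

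Differences were tested with edgeR's quasi-likelihood test, adjusted by Benjamini-Hochberg over all genes of a table, and genes were called DEGs when that p was under 0.05 and the change exceeded 1.5-fold either way. Against sh-Con, 4 of the 8 genes were lower in sh1-*TUG1* at an adjusted p under 0.05 (*HK2*, *PFKP*, *PFKFB3* and *PFKFB4*), where 12.3% of all genes were lower. In sh2-*TUG1*, 5 of the 8 were lower (*HK2*, *PFKL*, *PFKM*, *PFKFB3* and *PFKFB4*), where 21.9% of all genes were lower. As DEGs, 3 members were lower in sh1-*TUG1* (background 2.52%) and 5 in sh2-*TUG1* (background 8.97%). The members were chosen with earlier results of these data known, so these shares over all genes are a description and no test of enrichment. The median log2 fold change (log2FC) of the 8 was −0.37 and −0.79, beside 0.0027 and −0.0048 over all genes tested. No member rose at an adjusted p under 0.05 by edgeR, where 12.5% and 21.6% of all genes did. At an unadjusted p under 0.05, 1 member was higher in sh1-*TUG1* and 0 in sh2-*TUG1*. By DESeq2 the counts were 1 and 0 after adjustment, *PFKFB2* being the gene in sh1-*TUG1*. As DEGs, 0 members were higher in either line by edgeR or by DESeq2 (background 2.44% and 4.35%).

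Compared directly, sh2-*TUG1* was lower than sh1-*TUG1* for 5 members at an adjusted p under 0.05 (*HK2*, *PFKL*, *PFKM*, *PFKFB3* and *PFKFB4*, background 21.7%) and higher for *PFKP* alone (background 21%). As DEGs, 4 were lower (background 8.04%) and 0 higher by edgeR or DESeq2 (background 2.56%, with 1 higher at an unadjusted p under 0.05). The libraries of a line and of the control did not overlap for 5 members lower in sh1-*TUG1* (background 20.4%), 1 higher in sh1-*TUG1* (21.3%), 5 lower in sh2-*TUG1* (27.4%) and 0 higher in sh2-*TUG1* (27.1%). Between the lines 6 were lower without overlap (27.6%) and 1 higher (27.8%).

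Ranked per kilobase of the principal transcript in sh-Con, the members ran from *HK2* at 91.2 CPM per kb through *PFKL* (47.4), *PFKFB4* (24.4), *PFKFB3* (9.17), *PFKP* (4.01), *PFKFB2* (3.48) and *PFKM* (1.69) to *HK1* (1.31). Of neighbours in that order, *PFKP* and *PFKFB2* overlapped in their libraries. In sh1-*TUG1* *PFKL* (44.3) and *HK2* (43.0) overlapped at the head of the members, and in sh2-*TUG1* *HK2* (35.0) was followed by *PFKL* (29.5) and *PFKFB4* (8.12). *PFKFB3* dropped from 9.17 to 5.18 and 2.53 CPM per kb, and in sh2-*TUG1* it stood below *PFKFB2* (3.95).

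**Figure D1:**
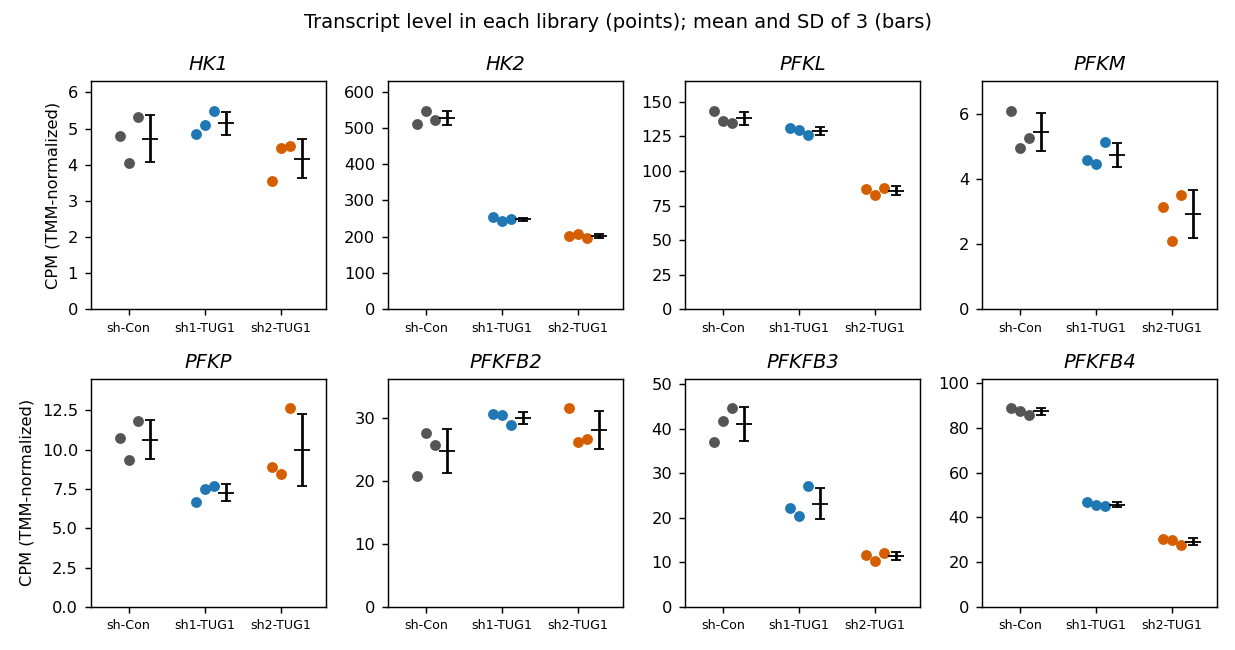
Level of each of the 8 genes in CPM (TMM-normalized, y axis from 0) in the sh-Con, sh1-TUG1 and sh2-TUG1 libraries; points are libraries, and the black mark with its bar is the mean and SD of 3. HK2, PFKL, PFKFB3 and PFKFB4 lie below sh-Con without overlap in both knockdown lines (PFKL narrowly so in sh1-TUG1), PFKP in sh1-TUG1 and PFKM in sh2-TUG1, and PFKFB2 lies above sh-Con in sh1-TUG1.

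*HK2*, the hexokinase that binds the mitochondrial outer membrane and is induced in many tumours, lies on chromosome 2 of GRCh38 (74833981 to 74893359, plus strand). Its level in sh-Con was 511, 547 and 522 CPM. In sh1-*TUG1* the libraries held 253, 244 and 247 CPM, and in sh2-*TUG1* 202, 207 and 197 CPM. Every knockdown library was below every control library, and the lines did not overlap each other either. The log2FC was −1.09 in sh1-*TUG1* (SE 0.042) at an adjusted p of 5.36e-07 in the edgeR test, or 47.1% of the control level. In sh2-*TUG1* it was −1.38 (SE 0.047, adjusted p = 1.73e-07), or 38.3%. The further fall from sh1-*TUG1* to sh2-*TUG1* was −0.30 (SE 0.040, adjusted p = 1.19e-04 in the fit of all 9 libraries).

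The DNA before the start sites of *HK2* is shown because the gene fell most among the hexokinases and both of its RefSeq promoter windows hold short motifs of known factors. Capitals mark ACGTG and GCGTG on either strand, the core letters to which hypoxia-inducible factors bind, and the palindrome CACGTG, the E-box of MYC and of the carbohydrate-response factors, which holds ACGTG on both strands. The stretches end at the start site or at the first exon of the gene in GENCODE 29, whichever came first, and both are RefSeq sequence of GRCh38.p14 on the plus strand. The first is chr2:74833877-74833980, and the second is chr2:74834920-74835169.
HK2, first start: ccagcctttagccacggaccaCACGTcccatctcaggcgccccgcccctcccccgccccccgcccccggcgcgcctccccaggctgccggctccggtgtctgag
HK2, second start: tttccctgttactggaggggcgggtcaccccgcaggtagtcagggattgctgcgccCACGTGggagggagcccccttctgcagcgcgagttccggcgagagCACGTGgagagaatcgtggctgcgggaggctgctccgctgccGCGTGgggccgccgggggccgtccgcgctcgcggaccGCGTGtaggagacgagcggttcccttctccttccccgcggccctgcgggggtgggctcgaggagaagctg
The whole second window of 300 bases, 250 before the start to 50 after it, held ACGTG 4 times, GCGTG 2 times and CACGTG 2 times, counting both strands. Over 35116 RefSeq windows of that length, 21.4% held ACGTG, 36.5% GCGTG and 7.26% CACGTG. A match of letters is a description and does not show binding, and its relation to the changes in level was not tested.

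*HK1*, the hexokinase of brain and red cells, was scarce. The control libraries held 4.79, 4.05 and 5.33 CPM, with 4.86, 5.10 and 5.49 CPM in sh1-*TUG1*, and 3.54, 4.46 and 4.51 CPM in sh2-*TUG1*. Both lines overlapped the control. The log2FC was 0.12 (95% interval −0.23 to 0.48, adjusted p = 0.619) in sh1-*TUG1* and −0.18 (−0.59 to 0.22, adjusted p = 0.448) in sh2-*TUG1* by edgeR. The log2 ratio of *HK2* to *HK1* counts went from 6.73, 7.07 and 6.61 in sh-Con to 5.70, 5.58 and 5.49 in sh1-*TUG1* and 5.83, 5.53 and 5.45 in sh2-*TUG1*. Over the 6 knockdown libraries, pooled from both lines as if they were the same condition, it was −1.21 relative to the control. The two-sided exact permutation test gave 0.0238, the smallest p it can give here, or 0.0556 adjusted over 7 pairs. The *HK1* gene starts 2425 bases past the end of *HKDC1* on the same strand of chromosome 10, and the tables do not say how reads near that border were divided.

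*HKDC1* encodes a hexokinase that is no member of the chosen genes, and it is given because the makeup of the family turns on it. It held 189, 188 and 188 CPM in the control, 189, 189.8 and 184 CPM in sh1-*TUG1*, and 234, 232 and 212 CPM in sh2-*TUG1*. Its log2FC was −0.0050 in sh1-*TUG1* (95% interval −0.092 to 0.082, adjusted p = 0.942) and 0.26 in sh2-*TUG1* (0.15 to 0.38, adjusted p = 0.00284). Per kilobase of the principal GENCODE transcript, *HK2* was the most abundant hexokinase transcript in sh-Con at 91.2 ± 3.25 CPM per kb (SD, n = 3), above *HKDC1* at 51.0 ± 0.178. In both knockdown lines the order was the other way round, with *HKDC1* at 50.9 ± 0.763 over *HK2* at 43.0 ± 0.754 in sh1-*TUG1*, and 61.3 ± 3.41 over 35.0 ± 0.854 in sh2-*TUG1*. In each group the libraries of these genes did not overlap. The order in sh1-*TUG1* depends on the length used. In CPM without length, *HK2* stayed above *HKDC1* there (248 and 188), and it was below *HKDC1* in sh2-*TUG1* (202 and 226).

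As a share of *HK1*, *HK2* and *HKDC1* per kilobase, *HK2* made up 63.5% ± 0.921 in sh-Con, 45.1% ± 0.559 in sh1-*TUG1* and 35.9% ± 0.840 in sh2-*TUG1* (SD, n = 3). *HKDC1* made up 35.6%, 53.4% and 62.9%. *HK1* stayed between 0.765% and 1.61% in all libraries. The sum of the 3 was 144 ± 3.02 CPM per kb in sh-Con, 95.3 ± 0.989 in sh1-*TUG1* and 97.4 ± 4.06 for sh2-*TUG1*, where the libraries of the lines overlapped in this sum (log2 difference 0.031). Without *HKDC1* the sum was 92.5 ± 3.12, 44.5 ± 0.711 and 36.2 ± 0.866. The log2 ratio of *HKDC1* to *HK2* counts was −1.43, −1.54 and −1.47 in sh-Con, −0.42, −0.36 and −0.42 in sh1-*TUG1*, and 0.21, 0.17 and 0.10 in sh2-*TUG1*. The 6 knockdown libraries exceeded the 3 control libraries by 1.36 on average. This pair was chosen after its values were seen, so the difference is given as a description, with no test. *HK3* was not analysed here.

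**Figure D2:**
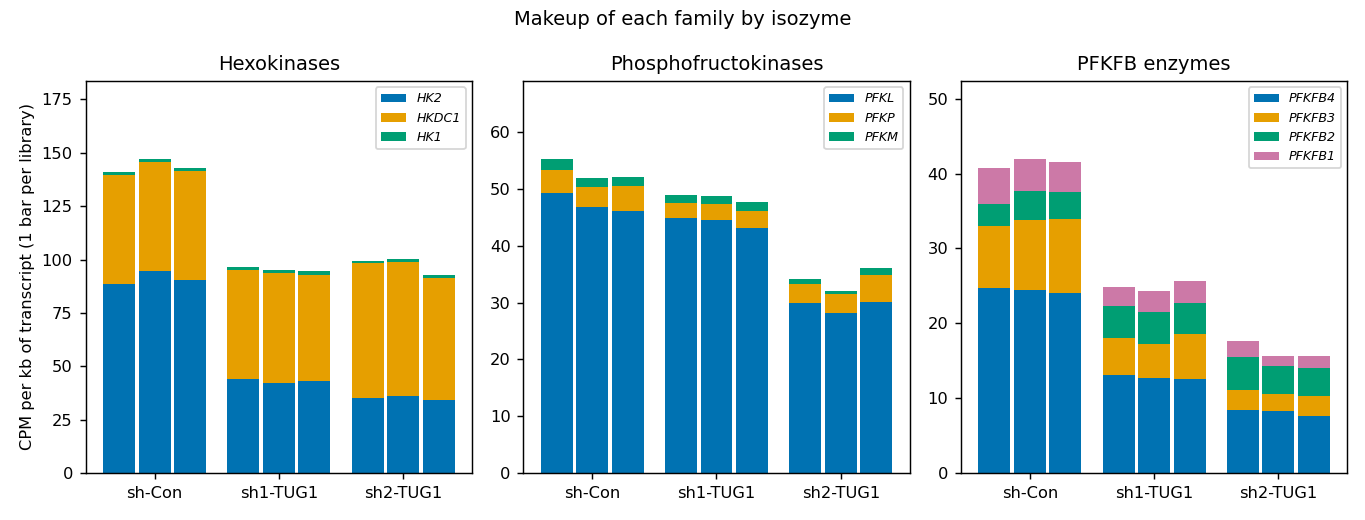
CPM per kilobase of principal transcript (y axis from 0), stacked by isozyme, with 1 bar per library grouped as sh-Con, sh1-TUG1 and sh2-TUG1, for the hexokinases, the phosphofructokinases and the PFKFB enzymes. On this scale HKDC1 overtakes HK2 in both knockdown lines (in CPM without length, in sh2-TUG1 only). PFKL makes up most of the phosphofructokinase bar in every library, and the PFKFB bar shrinks while its PFKFB2 part averages 3.48, 4.22 and 3.95 CPM per kb.

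*PFKL*, the liver form of phosphofructokinase (chromosome 21, 44300051 to 44327376), was the main isozyme, with 47.4 ± 1.66 CPM per kb in sh-Con against 4.01 ± 0.473 for *PFKP* and 1.69 ± 0.183 for *PFKM*. Its libraries held 144, 136 and 134 CPM in the control, 131, 129.9 and 126 CPM in sh1-*TUG1*, and 87.1, 82.3 and 87.9 CPM in sh2-*TUG1*. The sh1-*TUG1* values lay just under those of the control, and the sh2-*TUG1* values far below. The log2FC was −0.10 in sh1-*TUG1* (95% interval −0.20 to −2e-04, adjusted p = 0.134) and −0.69 in sh2-*TUG1* (−0.81 to −0.57, adjusted p = 9.53e-06) by the edgeR test. The direct comparison of sh2-*TUG1* with sh1-*TUG1* gave −0.59 (SE 0.045, adjusted p = 1.87e-06).

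*PFKM*, the muscle form, had 6.10, 4.97 and 5.25 CPM in sh-Con, 4.60, 4.47 and 5.15 in sh1-*TUG1*, and 3.14, 2.10 and 3.53 in sh2-*TUG1*. The sh2-*TUG1* libraries were all below the other groups, at 70 to 200 counts per library over the 9 libraries. Its log2FC was −0.20 in sh1-*TUG1* (adjusted p = 0.376) and −0.90 for sh2-*TUG1* (SE 0.22, adjusted p = 0.00831) by edgeR, and −0.70 between the lines (adjusted p = 0.0138). *SENP1*, on the other strand over the start of *PFKM*, had −0.034 between sh2-*TUG1* and sh-Con (adjusted p = 0.821), and whether the counting used strand is not given in the sources used here.

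*PFKP*, the platelet form, went the other way between the lines. Its libraries held 10.8, 9.31 and 11.8 CPM in the control, 6.65, 7.47 and 7.67 CPM in sh1-*TUG1*, and 8.89, 8.47 and 12.6 CPM in sh2-*TUG1*. The sh1-*TUG1* libraries lay below all others, while sh2-*TUG1* spanned the control range. The log2FC was −0.55 in sh1-*TUG1* (SE 0.13) and −0.089 in sh2-*TUG1* (95% interval −0.46 to 0.28), at adjusted p of 0.0114 and 0.689 by edgeR. The difference of sh2-*TUG1* from sh1-*TUG1* was 0.46 (SE 0.16, adjusted p = 0.0328), and it missed the threshold without sh1-*TUG1* replicate 1, 2 or 3 (adjusted p = 0.104, 0.0641 and 0.0558) and without sh2-*TUG1* replicate 3 (0.168), with log2 values of 0.25 to 0.57 over all left-out libraries.

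Within the phosphofructokinases the log2 ratio of *PFKL* to *PFKP* counts was 3.73, 3.87 and 3.51 in sh-Con, 4.30, 4.12 and 4.03 in sh1-*TUG1*, and 3.29, 3.28 and 2.80 in sh2-*TUG1*. The lines thus lay on opposite sides of the control. Each line differed from sh-Con by 0.45 and −0.58 with no overlap, and the exact permutation test of 3 libraries against 3 gave its smallest p, 0.1, which cannot reach 0.05. The ratio of *PFKL* to *PFKM* differed from sh-Con by 0.097 and 0.24 with overlapping libraries (exact permutation p = 0.4 in both lines). Summed per kilobase, the family stood at 53.1 ± 1.85 CPM per kb in sh-Con, at 48.5 ± 0.683 in sh1-*TUG1* and at 34.1 ± 1.97 in sh2-*TUG1* (SD, n = 3), the last being 64.2% of the control. The RefSeq window of *PFKL* held 1 GCGTG and no ACGTG, and 2 of 4 windows of *PFKP* and 2 of 7 of *PFKM* held either motif, beside 48.4% of all windows.

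*PFKFB4*, an isozyme known to be induced by hypoxia (chromosome 3, 48517684 to 48562015, minus strand), was the main PFKFB transcript, at 24.4 ± 0.393 CPM per kb in sh-Con. Its libraries held 88.8, 87.6 and 86.0 CPM in the control, 46.9, 45.4 and 45.1 CPM in sh1-*TUG1*, and 30.2, 29.7 and 27.4 CPM in sh2-*TUG1*. The 3 groups were fully apart. The log2FC was −0.93 in sh1-*TUG1* (SE 0.049) and −1.59 in sh2-*TUG1* (SE 0.059), at adjusted p of 2.51e-06 and 2.69e-07 by edgeR. The lines differed by −0.65 (edgeR, adjusted p = 2.49e-06). The window of *PFKFB4* held 1 GCGTG, 166 bases before the start. *UCN2*, which overlaps *PFKFB4* on the same strand, had at most 1.69 CPM in any library.

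*PFKFB3*, the isozyme whose kinase activity far exceeds its phosphatase activity (chromosome 10, 6144934 to 6254644), had 37.0, 41.8 and 44.6 CPM in sh-Con. It had 22.2, 20.4 and 27.1 CPM in sh1-*TUG1* and 11.7, 10.3 and 12.03 CPM in sh2-*TUG1*. Again the groups were fully apart, and *PFKFB3* had the lowest log2FC of the 8 genes in sh2-*TUG1*. The value was −0.83 in sh1-*TUG1* (SE 0.11) and −1.86 in sh2-*TUG1* (SE 0.092), at adjusted p of 6.08e-04 and 1.03e-06 by edgeR, or 56.5% and 27.5% of the control. Between the lines it was −1.03 (SE 0.11, adjusted p = 2.36e-05). Of its 2 RefSeq start sites, the second is preceded by an E-box 108 bases before the start, in chr10:6202682-6202865 of GRCh38.p14 on the plus strand, shown to the first exon with the motif in capitals.
PFKFB3, second start: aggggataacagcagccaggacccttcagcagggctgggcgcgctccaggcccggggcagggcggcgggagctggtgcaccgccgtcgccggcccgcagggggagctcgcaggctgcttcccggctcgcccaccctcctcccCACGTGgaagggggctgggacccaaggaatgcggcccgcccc
The window of the first start held GCGTG on the minus strand only.

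*PFKFB2*, the heart form, which the kinases AKT and AMPK are known to phosphorylate, did not follow. It had 20.8, 27.6 and 25.7 CPM in the control, 30.6, 30.5 and 28.8 CPM in sh1-*TUG1*, and 31.4, 26.1 and 26.5 CPM in sh2-*TUG1*. The sh1-*TUG1* libraries were above all control libraries, and the sh2-*TUG1* libraries overlapped them. The log2FC was 0.28 in sh1-*TUG1* (95% interval 0.058 to 0.49, adjusted p = 0.0653) and 0.18 in sh2-*TUG1* (−0.073 to 0.43, adjusted p = 0.226) by edgeR. DESeq2 put the former at an adjusted p of 0.0371, and edgeR without sh-Con replicate 2 put it at 0.0352 with a value of 0.36, so that this call depends on the tool and on 1 library. The lines differed by −0.097 (95% interval −0.31 to 0.12, adjusted p = 0.463). *YOD1*, on the other strand inside the *PFKFB2* locus, had −0.10 in sh1-*TUG1* (adjusted p = 0.405) and 0.51 for sh2-*TUG1* (adjusted p = 6.59e-04), and without strand its reads and those of *PFKFB2* cannot be told apart.

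*PFKFB1*, the liver form and no member of the chosen genes, was scarce and fell, from 9.21, 8.22 and 7.82 CPM in sh-Con to 4.83, 5.29 and 5.62 CPM in sh1-*TUG1* and 4.28, 2.51 and 3.08 CPM in sh2-*TUG1*. Its log2FC was −0.68 (adjusted p = 0.00491) and −1.36 (adjusted p = 5.48e-04) from edgeR. Of the 4 PFKFB genes, 3 thus fell in both lines and *PFKFB2* passed the test in neither. ACGTG or GCGTG was in 0 of 2 RefSeq windows of *PFKFB1*, 1 of 1 of *HKDC1* and 2 of 7 of *HK1*, beside 48.4% of all windows.

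The share of *PFKFB2* among the 3 chosen PFKFB transcripts per kilobase was 9.38% ± 1.11 in sh-Con, 19.1% ± 1.06 in sh1-*TUG1* and 27.0% ± 1.47 in sh2-*TUG1* (SD, n = 3). That of *PFKFB4* was 65.9% ± 2.65, 57.6% ± 1.89 and 55.7% ± 2.10, and that of *PFKFB3* 24.7% ± 1.77, 23.3% ± 2.93 and 17.3% ± 1.54. Over the 6 knockdown libraries, pooled from both lines, the share of *PFKFB2* was 13.7 percentage points above sh-Con. That of *PFKFB4* was 9.25 points below (difference −9.25). Both had the smallest p that the two-sided exact permutation test can give here, 0.0238. Adjusted over 8 shares it was 0.0476. The shares of *HK1* and *HK2* are complements, so that adjustment counts the same result more than once, and no weight is put on its passing 0.05. The log2 ratio of *PFKFB2* to *PFKFB3* counts went from −0.83, −0.60 and −0.79 in sh-Con to 0.46, 0.58 and 0.09 in sh1-*TUG1* and 1.43, 1.34 and 1.14 in sh2-*TUG1*. In sh-Con *PFKFB3* had the more counts in every library, and in both knockdown lines *PFKFB2* had. Per kilobase, *PFKFB3* stayed above *PFKFB2* in sh1-*TUG1* without overlap (5.18 and 4.22 CPM per kb). It was below *PFKFB2* on that scale in sh2-*TUG1* only (2.53 and 3.95). Over the same 6 pooled libraries the ratio was 1.58 above the control. Its exact permutation p was again the smallest possible, 0.0238, or 0.0556 adjusted over 7 pairs. The ratio of *PFKFB4* to *PFKFB3* differed from sh-Con by −0.10 in sh1-*TUG1* and by 0.27 for sh2-*TUG1*, where their libraries overlapped the control (exact permutation p = 0.7 and 0.2). The sum of the 3 was 37.0 ± 0.951 CPM per kb in sh-Con, 22.2 ± 0.611 in sh1-*TUG1* and 14.6 ± 0.756 in sh2-*TUG1*, or 59.9% and 39.4% of the control.

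**Figure D3:**
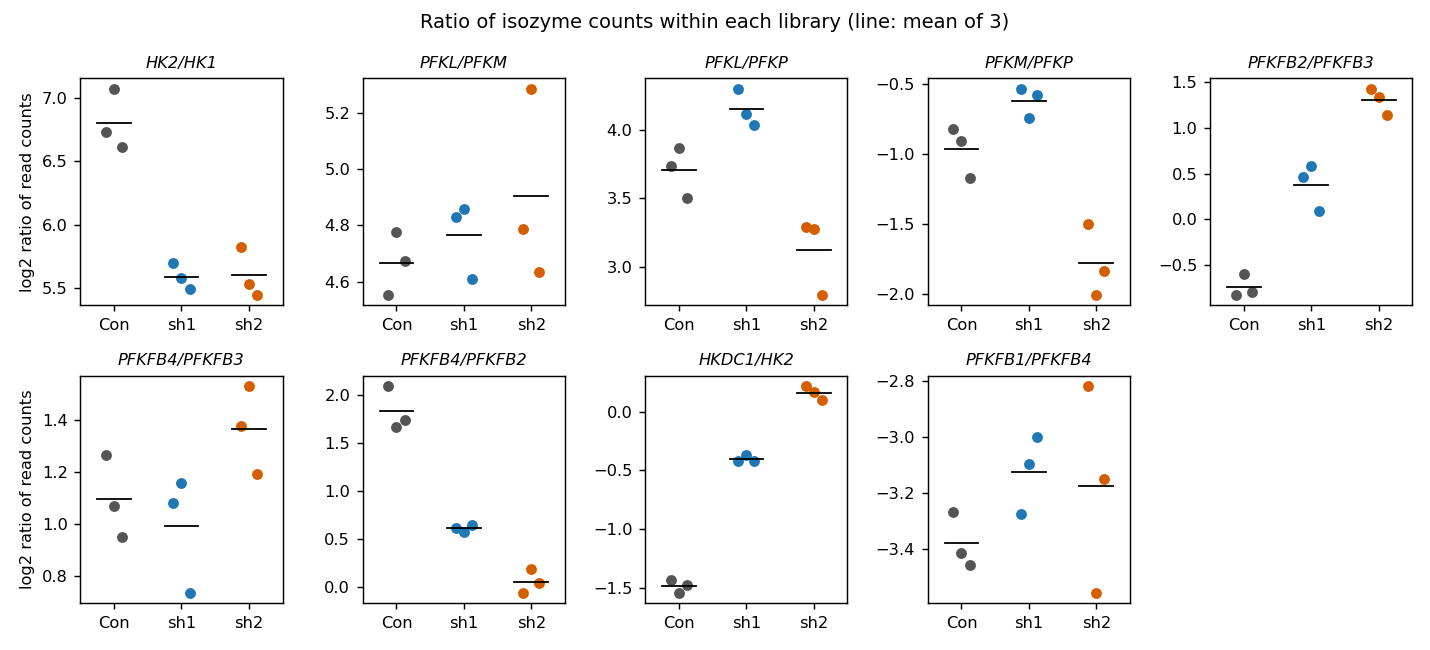
Log2 ratio of the read counts of 2 isozymes within each library (y axis, 1 scale per panel, not starting at 0) for sh-Con, sh1-TUG1 and sh2-TUG1; points are libraries and lines are means of 3. PFKFB2/PFKFB3 and HKDC1/HK2 step up from sh-Con to sh1-TUG1 to sh2-TUG1, PFKL/PFKP moves in opposite directions in the lines, and PFKL/PFKM and PFKFB4/PFKFB3 overlap the control.

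**Figure D4:**
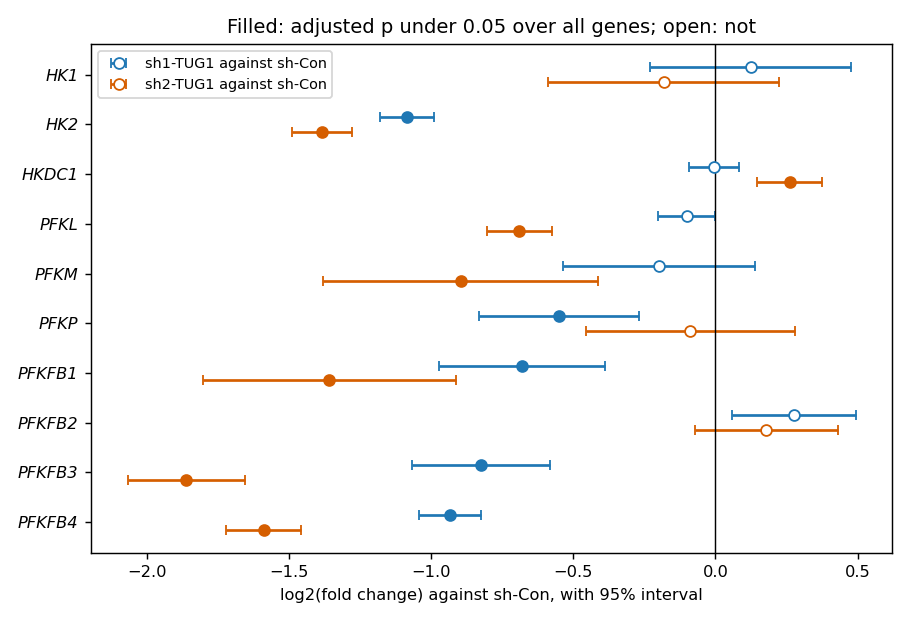
Log2 fold change against sh-Con (x axis) with its 95% interval for the 8 genes plus HKDC1 and PFKFB1, in sh1-TUG1 and sh2-TUG1; filled points have an adjusted p under 0.05 over all genes. PFKFB3 in sh2-TUG1 is lowest at −1.86, and HK1 and PFKFB2 are open in both lines.

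The series title names microRNA-122-5p, the abundant microRNA of liver, so matches to its seed in the members' 3′ UTRs are given. The mature sequence from RefSeq (GRCh38.p14, chromosome 18, 58451088 to 58451109, plus strand) is shown with bases 2 to 8, the seed, in capitals.
hsa-miR-122-5p: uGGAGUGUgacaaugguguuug
A match of 7 bases here is one to bases 2 to 8, or one to bases 2 to 7 followed by A. Among the principal GENCODE transcripts of the 8 genes, *HKDC1* and *PFKFB1*, only the 3′ UTR of *PFKFB2* held such a match, and it held 3. At 5452 bases it is also the longest of these 3′ UTRs, which otherwise run from 223 to 2590 bases. That is 1 of 10 genes searched, and over 11875 genes of the tables with a 3′ UTR, 21.0% held such a match. The sites lie on the plus strand at chr1:207072646-207072675, chr1:207072821-207072850 and chr1:207076935-207076964 of GRCh38, and capitals mark the bases that pair with the seed or, at the last site, with bases 2 to 7 followed by A. The base given is that of the first capital or, at the last site, that just before the capitals.
PFKFB2, base 286 of the 3′ UTR: aggaaaaagatACACTCCcttggggctgag
PFKFB2, base 461 of the 3′ UTR: gtgttttcctcACACTCCttacttgactgc
PFKFB2, base 4575 of the 3′ UTR: gaaggaattaagCACTCCAcgtgttttctt
Of 15 later enzymes, described next, 4 held a match (*ALDOA*, *ALDOC*, *PGK1* and *PKM*). Of the 11 later enzymes lower in sh1-*TUG1*, 4 held a match and 7 did not, and of the 13 lower in sh2-*TUG1*, 4 did and 9 did not. The part of miR-122-5p in any of these changes was not tested here. For *ALDOA* and *PKM*, the study reported from luciferase assays that the microRNA acts directly on their untranslated regions. The study also reported that inhibiting the microRNA partly raised both transcripts in knockdown cells.

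The rest of the pathway was given by a list of 18 enzymes from glucose 6-phosphate isomerase to lactate dehydrogenase. In sh1-*TUG1*, 14 of them were tested, and 11 were lower at an adjusted p under 0.05, with 0 higher by edgeR, adjusted or not, and 0 by DESeq2. The median log2FC over the list was −0.45, beside 0.0027 over all genes. In sh2-*TUG1*, 13 of 15 were lower (12 by DESeq2), with a median of −0.62 beside −0.0048. *ALDOC*, an aldolase, had −0.93 and −1.36, and *LDHA*, which makes lactate, had −0.76 and −0.80. The value of *ALDOC* was the lowest of the list in both lines. *HK2* (−1.09 and −1.38) was below it in both, *PFKFB4* was level with it in sh1-*TUG1* (−0.93) and below it in sh2-*TUG1* (−1.59), and *PFKFB3* was below it in sh2-*TUG1* only. These orders between genes were not tested. *PKLR*, the liver pyruvate kinase, had 0.26 in sh1-*TUG1* (adjusted p = 0.373) and −1.09 for sh2-*TUG1* (adjusted p = 0.00364), and the lines differed by −1.35 (adjusted p = 3.61e-04 from edgeR). *ENO3* passed the test in neither line, with −0.18 and −0.14.

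**Figure D5:**
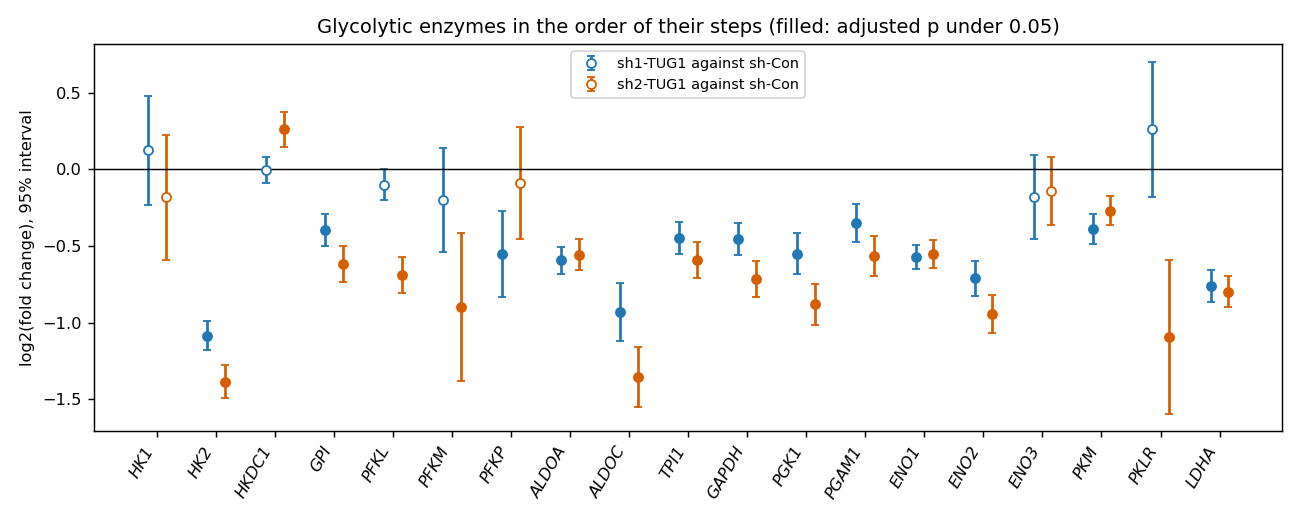
Log2 fold change against sh-Con with its 95% interval (y axis) of glycolytic enzyme genes tested in both lines, ordered by step from hexokinase to lactate dehydrogenase (x axis, GAPDHS left out); filled points have an adjusted p under 0.05. HK2 has the lowest point at the hexokinase step and HKDC1 lies at or above 0, and most later enzymes lie between −1 and −0.2.

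A list of genes that mostly oppose or check the same steps was mixed, and 5 of 7 listed genes were tested (*G6PC*, *G6PC3*, *TIGAR*, *GCKR* and *ADPGK*). *FBP1* and *FBP2*, which reverse the phosphofructokinase step, were not among those tested. *ADPGK* phosphorylates glucose itself, and it is counted in the list. *G6PC*, the catalytic subunit of glucose 6-phosphatase, which undoes the hexokinase step in liver, rose from 8.60, 7.87 and 10.3 CPM in sh-Con to 14.1, 13.8 and 18.2 CPM in sh1-*TUG1* and 17.3, 17.2 and 20.2 CPM in sh2-*TUG1*. Both lines lay above the control. Its log2FC was 0.78 (adjusted p = 0.00357) and 1.03 (adjusted p = 1.55e-04) from edgeR. *G6PC3*, the form found in most tissues, fell by 0.18 on the log2 scale in sh1-*TUG1* (adjusted p = 0.0356, and 0.0593 with library size alone) and by 0.70 in sh2-*TUG1* (adjusted p = 1.30e-05). *TIGAR*, a phosphatase of fructose 2,6-bisphosphate, had 0.13 (adjusted p = 0.269) and 0.19 (adjusted p = 0.0462, and 0.0731 by DESeq2). The median over the tested genes of the list, *ADPGK* included, was 0.0014 and −0.047.

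Kinases that act on PFKFB enzymes were tested for 9 of 11 listed genes. In sh1-*TUG1*, *AKT1* and *AKT2* were higher, with log2FC of 0.19 and 0.24, and *PRKAA1*, a catalytic subunit of AMPK, was lower (−0.19, adjusted p = 0.0460, and 0.0846 with library size alone). In sh2-*TUG1*, *AKT2*, *PRKAA2* and *PRKAB2* were higher (0.33, 0.37 and 0.35). The mitochondrial channels to which *HK2* protein docks were tested too. In sh2-*TUG1*, *VDAC2* had −0.29 (adjusted p = 0.00702), while *VDAC1* and *VDAC3* did not pass. In sh1-*TUG1* none of the 3 channel genes passed by edgeR or DESeq2, and 1 was lower at an unadjusted p under 0.05. Of 3 genes for the ubiquitin ligases that mark PFKFB3 protein for degradation, *CDC27* had 0.18 in sh2-*TUG1* (adjusted p = 0.0221, and 0.0596 with library size alone). In sh1-*TUG1* none of these 3 passed by either tool, and 1 was higher at an unadjusted p under 0.05.

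Transcription factors known to act on the members were tested for 7 of 7 listed genes. *HIF1A*, the hypoxia-inducible factor subunit under which *HK2*, *PFKFB3* and *PFKFB4* are known to be induced, had −0.044 in sh1-*TUG1* (adjusted p = 0.460) and 0.34 for sh2-*TUG1* (adjusted p = 9.02e-04). Its transcript was thus higher in sh2-*TUG1* than in sh-Con, and whether this bears on those 3 genes was not tested. *EPAS1*, the related HIF-2 subunit, was lower in both lines (−0.18 and −0.30, adjusted p = 0.0150 and 6.72e-04). *MYC* had −0.22 in sh1-*TUG1* (adjusted p = 0.00926) and 0.0070 for sh2-*TUG1* (adjusted p = 0.935). *MLXIPL*, the carbohydrate-response factor of liver, had 0.23 (adjusted p = 0.0129) and −0.060 (adjusted p = 0.464). *ARNT*, *SREBF1* and *MLX* passed the test in neither line. These are transcript levels, and the HIF subunits are known to be controlled mainly as protein.

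For each member, the genes most like it in log2 CPM over the 9 libraries were found among 11505 genes. The libraries share 3 groups, so the values describe the pattern of group means as much as anything, and they carry no p. *HK2* was nearest to *TM4SF1*, *PAM* and *PDK1* (Pearson's r of 0.997, 0.997 and 0.995). *PDK1* encodes a kinase that closes the entry of pyruvate into mitochondria. *PFKFB4* was nearest to *SLC6A8*, *SPAG4* and *NPTXR* (each 0.996), and *PFKFB3* to *SLC2A14*, *ADGRD1* and *PIR* (0.993, 0.991 and 0.989). *SLC2A14* encodes a glucose transporter. *PFKL* was nearest to *APOBEC3C* (0.995), *PFKM* to *MT1G* (0.985), *PFKFB2* to *NADK2* (0.959), *HK1* to *CYP2W1* (0.954) and *PFKP* to *FOSL1* (0.928). Among the members, *HK2* and *PFKFB4* ran together with an r of 0.975 and *PFKFB3* and *PFKFB4* with 0.966, whereas *PFKFB2* had −0.57 with *HK2* and *PFKP* had −0.14 with *PFKL*.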

How the data were processed

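RNA-seq of HepG2 cells gave 9 libraries, grouped by their labels into sh-Con, sh1-*TUG1* and sh2-*TUG1*. The authors deposited read counts per gene, not normalized, in a table per knockdown line, and per the labels' processing notes reads were handled with HISAT2 and StringTie on GRCh38. The deposited FPKM values used the genomic span as gene length and served only to describe the tables. The authors' log2 fold changes and their false discovery rates (adjusted p-values) hold their own comparison and were not used.

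The tables give 13017 and 12953 genes, and 1087 and 1082 rows without an Ensembl identifier held 1.46% and 1.41% of the counts. The comparisons with sh-Con used the 6 libraries of each table, and the comparison between the lines used all 9 libraries, with edgeR 4.0.16 (TMM, quasi-likelihood, Benjamini-Hochberg over all genes, no filter) in R 4.3.3. DESeq2 1.42.0 was an alternative. The scripts were tested on simulated data. CPM are on 1 TMM scale over 9 libraries, divided by the principal transcript of GENCODE 29 for levels per kilobase. Ratios of isozymes (0.5 counts added), shares and sums were compared with exact permutation tests (scipy 1.17.1), whose smallest two-sided p is 0.1 for 3 against 3 and 0.0238 for 3 against 6. Promoter windows and the microRNA came from RefSeq, where 7 of the 8 members had a window (*PFKFB2* did not), and 3′ UTRs from GENCODE 29. Pairs of replicates differed beyond read sampling, with a chi-square per degree of freedom of 6.41 to 25.8.

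The members and all lists were chosen with earlier results of these data known. Named genes are the members, the lists, overlapping genes and, per member, the 3 genes with the highest correlation among those with a mean of at least 50 counts. Alternatives were other normalizations and filters, DESeq2, a replicate block, 1 fit of all libraries, and leaving out each library. *TUG1* was not analysed here, and some listed genes are not reported individually.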

Additional observations from a re-analysis of the deposited data

Results flagged for a closer look

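The lines differed from each other, in the direct edgeR test of sh2-*TUG1* against sh1-*TUG1* over 12854 genes, for 6 of the 8 members. At an adjusted p under 0.05, 5 members were lower in sh2-*TUG1* (21.7% of all genes were lower) and 1 was higher (21% of all genes were higher). The log2 differences were −0.30 for *HK2*, −0.59 for *PFKL*, −0.70 for *PFKM*, −1.03 for *PFKFB3* and −0.65 for *PFKFB4*, and 0.46 for *PFKP*. *HKDC1* differed by 0.27 and *PFKFB1* by −0.68. *YOD1*, which overlaps *PFKFB2*, differed by 0.61.

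Of the other genes listed, those that oppose or check the same steps differed by −0.51 (*G6PC3*) and −0.32 (*GCKR*). Among later enzymes the differences were −0.22 for *GPI*, −0.42 for *ALDOC*, −0.14 for *TPI1*, −0.26 for *GAPDH*, −0.33 for *PGK1*, −0.21 for *PGAM1*, −0.23 for *ENO2*, −1.35 for *PKLR* and 0.12 for *PKM*. The last was 0.056 (adjusted p = 0.263) with library size alone. Among kinases, channels and ligase genes they were 0.52 for *PRKAA2*, 0.30 for *PRKAB2*, −0.24 for *AKT1*, −0.19 for *VDAC3*, 0.18 for *FZR1*, 0.22 for *CDC27* and −0.21 for *BTRC*. Transcription factors gave 0.39 for *HIF1A*, −0.12 for *EPAS1*, 0.23 for *MYC* and −0.29 for *MLXIPL*. Of the markers of other cell types, *CD68* differed by −0.75 and *ACTA2* by −0.42.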

How the results depend on the processing

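Of 24 comparisons of a member, 20 kept their direction and their side of the threshold under all alternatives run. The filters among these alternatives removed no gene, so those settings could not change a result. *PFKP* in sh2-*TUG1* turned to 0.019 without sh2-*TUG1* replicate 2 (range over left-out libraries −0.30 to 0.019), and its difference between the lines fell to 0.40 (adjusted p = 0.0625) with library size alone. *PFKM* between the lines had an adjusted p of 0.0514 without sh1-*TUG1* replicate 3. The members higher in sh1-*TUG1* numbered 1 by DESeq2, and those higher in sh2-*TUG1* than in sh1-*TUG1* 0 with library size alone.

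Leaving out a library gave 1017 to 1895 higher and 1019 to 1884 lower genes in sh1-*TUG1*, beside 1633 and 1599, with the counts of higher genes moving over 1.5 times without sh1-*TUG1* replicate 1, 2 or 3 (1087, 1017 and 1053) and those of lower genes without replicate 2 or 3 (1019 and 1028). It gave 0 to 1 members higher in sh1-*TUG1* and 0 to 1 higher in sh2-*TUG1* than in sh1-*TUG1*. Lower DEGs among the members between the lines were 2 to 4, with 2 without sh2-*TUG1* replicate 2. Over both knockdown lines the log2 ratio *PFKL*/*PFKP* ranged from −0.20 to 0.099, the share of *PFKL* from −1.05 to 0.584 points, of *PFKP* from −0.208 to 1.41 and of *PFKFB3* from −5.68 to −3.53.

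Shares of read counts, with no length, moved *HK1* by 1.14 and 1.13 points and *HK2* by −1.14 and −1.13 for the lines sh1-*TUG1* and sh2-*TUG1*, and *PFKFB2* by 14.2 and 24.8, with 10.6 between the lines. In sh2-*TUG1* *PFKFB3* moved by −10.2 and *PFKFB4* by −14.6. With all exons joined as length, *HK1* moved by 1.10 and 1.09 and *HK2* by −1.10 and −1.09, *PFKL* and *PFKP* by 3.004 and −2.88 in sh1-*TUG1*, and by −7.32 and 7.95 between the lines. With *HKDC1* and *PFKFB1* counted in, *HK1* moved by 0.585 and 0.276, *HK2* by −18.4 and −27.6 (−9.18 between the lines), and *PFKFB2* by 15.8 in sh2-*TUG1*. The log2 sum of the hexokinases then changed by −0.59 and −0.56, with 0.031 between the lines. Summed as CPM, the PFKFB enzymes changed by −0.63 and −1.16. The settings for joined exons and for *HKDC1* and *PFKFB1* were chosen after seeing the data.

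The replicate numbers do not pair the libraries, since same-numbered libraries correlated at −0.29 to 0.019. With the replicate block, the members lower at an adjusted p under 0.05 numbered 4 for sh1-*TUG1* and 5 for sh2-*TUG1*, and the lower genes went from 1599 to 1347 and from 2835 to 2490. *HK1* and *PFKM* rest on 70 to 207 counts per library, so that their intervals are wide.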
